A study of Rattus norvegicus with 24 samples.

Results

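Lysosomes are the acid compartments in which cells break down what they take up or recycle. Soluble hydrolases in the lumen cleave proteins, sugars, lipids and phosphate esters, glycosylated membrane proteins line the compartment, and a proton pump, the V-ATPase, acidifies it. Macrophages, which clear inhaled particles from the airspaces, are rich in lysosomes, and the transcription factors TFEB and MITF are known to bind short motifs in the promoters of many lysosomal genes. The genes described here are 43 lysosomal hydrolases, membrane proteins, pump subunits and regulators chosen by name, of which 41 were measured among 14217 genes. Each was read from its brightest probe set with a single gene symbol over 24 arrays. Npc1, a cholesterol transporter of the lysosomal membrane, and Atp6v0d2, a pump subunit isoform known from osteoclasts, had no such probe set in the annotation used here and were not analysed.

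The arrays measured RNA of the right caudal lung lobe of adult male Sprague-Dawley rats, 17 weeks old on the sample labels and 10 to 15 weeks old in the series text. All rats were exposed by both routes, nose-only to air or cigarette smoke and then whole-body to air, Iraqi sand or silica, which the series text calls manufactured. The 6 groups were air by both routes, air with Iraqi sand, air with silica, smoke with air, smoke with Iraqi sand and smoke with silica, with 4 rats each, and they are called below the air, sand, silica, smoke, smoke and sand, and smoke and silica groups. The smoke held 0.48 mg/L of wet total particulate matter and was given 3 hours daily, 5 days weekly, with a duration of 5 weeks by the protocol but 6 weeks by the series text. The particle concentration was 1 mg/m3, given 18 hours daily, 7 days weekly, in the last 2 weeks. Levels are RMA values on the log2 scale, so a difference of 1 is a doubling, and errors of differences are standard errors of the fitted model. A gene is said to have risen or fallen where limma gave an adjusted p under 0.05 over all 14217 genes.

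A few arrays stood apart. Rat 302 of the sand group correlated with the other arrays at 0.944 on average and at 0.960 at most, and rats 302 and 104 (air group) carried heart muscle transcripts, with mean levels of 7 heart markers of 9.48 and 9.91 against 5.40 to 7.80 in the other rats. Rat 604, exposed to smoke and silica, was highest in proliferation markers, with a mean of 8.53 against 6.63 to 7.61 in the others. Counts of genes past the threshold without rat 302 are given beside the results they change, and the single calls beside part of them.

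Across smoke and air, averaged over the 3 particle conditions, 15 of the 41 lysosomal genes rose in the 12 smoke rats and none fell, where 2.69% of all genes rose and 3.7% fell. At an unadjusted p under 0.05 there were 27, against 24.5% of all genes. The largest rises were those of Ctsk, a collagen-cleaving cathepsin known from osteoclasts and macrophages, by 0.97 ± 0.13, Cd68, the macrophage lysosomal glycoprotein macrosialin, by 0.94 ± 0.11, and Ctsd, the main aspartic protease of lysosomes, by 0.59 ± 0.06. In folds these were 1.96, 1.92 and 1.5. The median difference was 0.16 for the 41 genes and -0.02 for all genes, and 36 of the 41 lay above 0, against 42% of all genes. Without rat 302, 25 of the 41 rose, among them all 15, while 10.3% of all genes passed. On the 19 arrays with an RNA integrity number, and with that number as a covariate, the calls of Ctsa, Lgmn, Hexa, Grn and Lamp2 ended (adjusted p from 0.0511 to 0.143) and the other 10 did not. Those of Lgmn, Grn and Lamp2 also ended on these 19 arrays without the covariate (adjusted p from 0.0564 to 0.12). This lobe holds many cell types, so more cells of a type and more RNA per cell cannot be told apart.

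**Figure D1:**
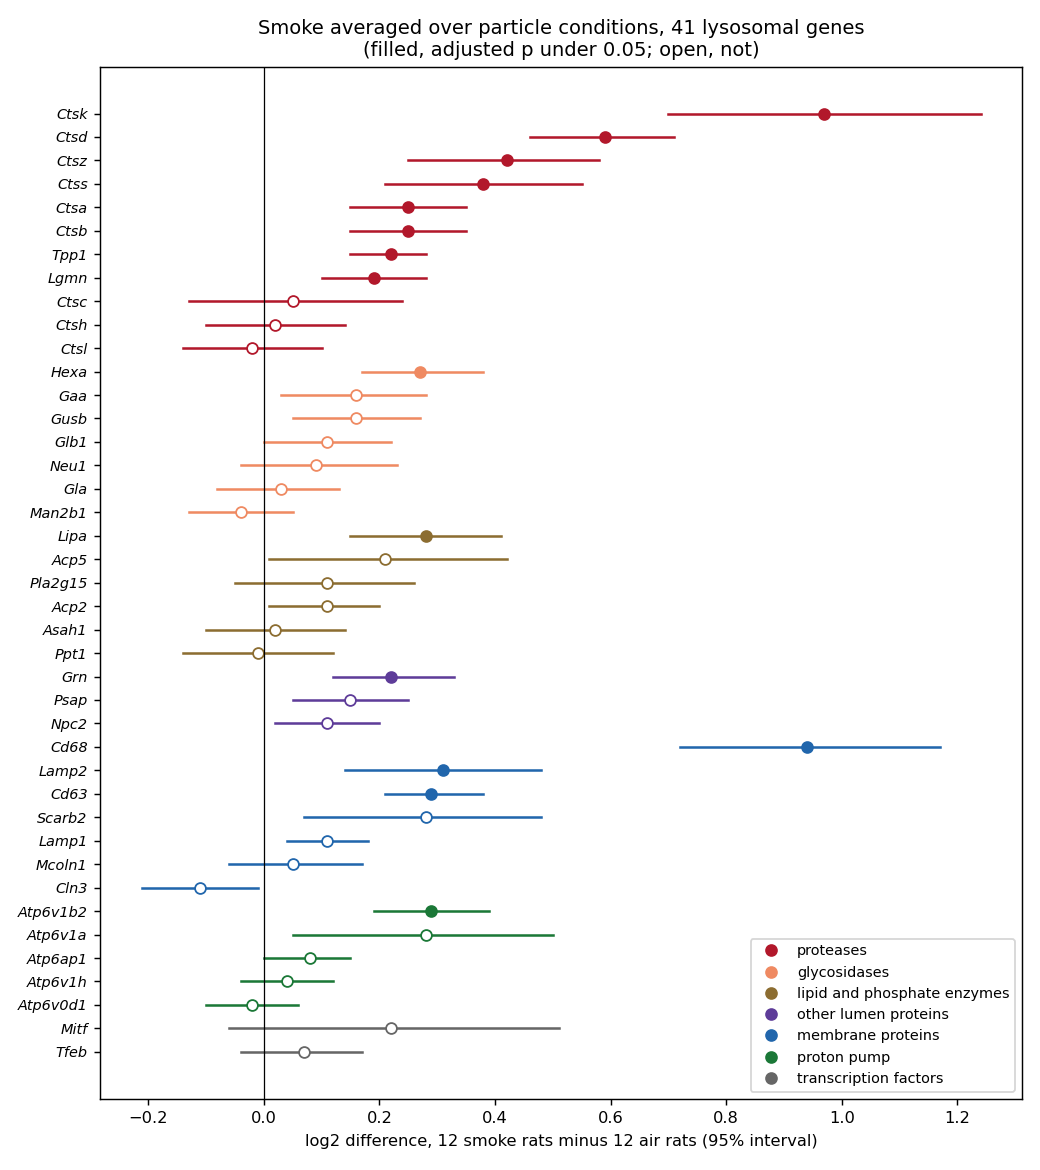
Log2 difference between the 12 smoke rats and the 12 air rats for each of the 41 lysosomal genes, grouped by role (points, difference; lines, 95% confidence interval; filled points, adjusted p under 0.05). The 15 filled points include 8 of the 11 proteases, and no filled point lies below 0.

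Proteases gave 8 of the 15 rises, out of 11 measured. Beside Ctsk and Ctsd these were Ctsz, a carboxypeptidase, at 0.42 ± 0.08 (adjusted p = 0.00348), and Ctss, which trims the invariant chain during antigen presentation, at 0.38 ± 0.08 (adjusted p = 0.00884). Ctsa, which also stabilises lysosomal sialidase and beta-galactosidase, rose by 0.25 ± 0.05 (adjusted p = 0.00441), and the endopeptidase Ctsb by 0.25 ± 0.05 (adjusted p = 0.00277). Tpp1, a tripeptidyl peptidase, rose by 0.22 ± 0.03 (adjusted p = 3.44e-04), and Lgmn, the asparaginyl endopeptidase that processes cathepsins, by 0.19 ± 0.04 (adjusted p = 0.0126). A second, dim probe set of Lgmn stood at -0.09 ± 0.06, and with the mean of both probe sets the call was lost, at 0.05 (adjusted p = 0.534). The other proteases lay near 0. Ctsh, an aminopeptidase known from alveolar type 2 cells, stood at 0.02 ± 0.06, Ctsl at -0.02 ± 0.06, and Ctsc, which activates granule serine proteases, at 0.05 ± 0.09, with 95% intervals of -0.10 to 0.14, -0.14 to 0.10 and -0.13 to 0.24. Without rat 302 Ctsc stood at -0.03 ± 0.05.

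Ctsd was the 1 gene of the 41 in which smoke and air rats did not overlap at all. Its levels were 12.25, 12.49, 12.46 and 12.45 in the air group, 12.59, 12.88, 13.05 and 12.99 in the sand group and 13.04, 12.64, 12.88 and 12.73 in the silica group. Among smoke rats they were 13.51, 13.19, 13.27 and 13.30 without particles, 13.15, 13.46, 13.12 and 13.24 with sand and 13.25, 13.26, 13.32 and 13.40 with silica. All 12 smoke rats lay above all 12 air rats, and all 8 rats with a particle but no smoke lay between the air group and the smoke rats. Of all genes, 0.0703% had all smoke rats above all air rats and 0.0422% had them below. The adjusted p was 1.33e-05.

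Ctsk was low without smoke, with 7.19, 7.63, 7.84 and 7.32 in the air group, 7.22, 8.07, 7.56 and 7.55 in the sand group and 8.0, 7.53, 7.69 and 7.52 in the silica group. With smoke it stood at 9.01, 8.46, 8.31 and 8.59 without particles, 7.85, 8.48, 8.09 and 8.49 with sand and 8.28, 8.80, 9.44 and 8.96 with silica. Unlike Ctsd, it showed no clear step in the sand and silica groups, where 7 of the 8 rats stayed at or below 8.0, and the smoke and sand group overlapped the rats without smoke. The adjusted p over 12 against 12 rats was 1.04e-04.

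**Figure D2:**
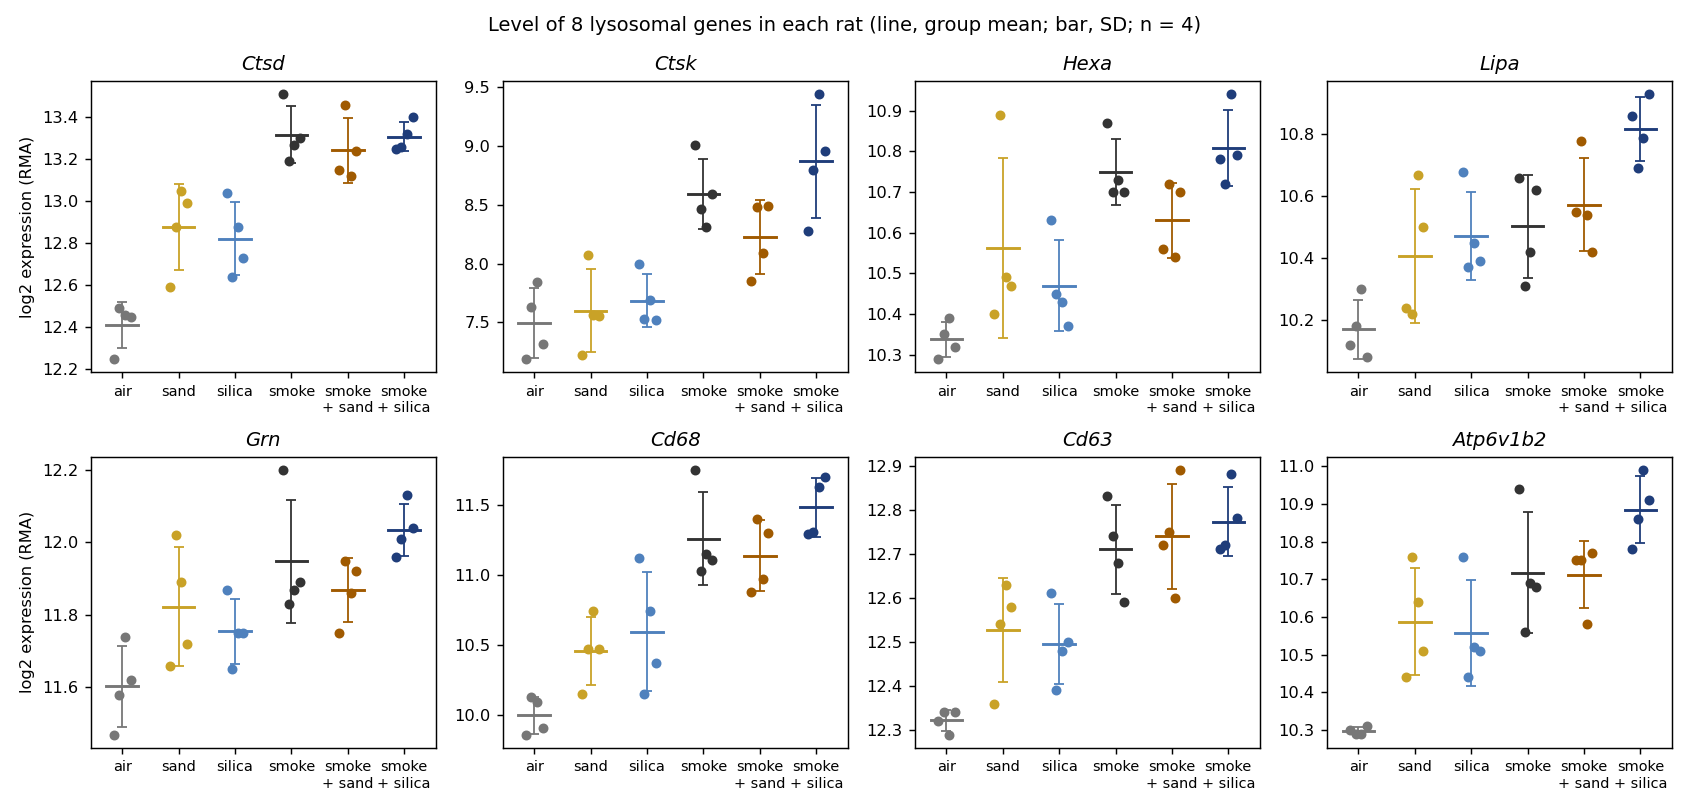
Log2 expression of 8 lysosomal genes in each of the 24 rats (points), with the group mean (line) and SD (bar, n = 4), each panel on its own axis. In Ctsd all 12 smoke rats lie above all 12 air rats, and Atp6v1b2 lies between 10.29 and 10.31 in the air group and above that in every other rat.

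Hydrolases of sugars and lipids gave 2 rises among 13 genes. Of the 7 glycosidases 1 rose, Hexa, the alpha subunit of beta-hexosaminidase, by 0.27 ± 0.05 (adjusted p = 0.00252), and of the 6 enzymes of lipids and phosphate esters 1 rose, the acid lipase Lipa, which frees cholesterol from its esters, by 0.28 ± 0.06 (adjusted p = 0.00847). Hexa levels were 10.29, 10.35, 10.39 and 10.32 in the air group, 10.40, 10.89, 10.49 and 10.47 with sand and 10.63, 10.45, 10.43 and 10.37 with silica. Under smoke they were 10.87, 10.70, 10.73 and 10.70 without particles, 10.56, 10.72, 10.54 and 10.70 with sand and 10.78, 10.72, 10.94 and 10.79 with silica. The highest level without smoke belonged to rat 302, and without it all other rats without smoke lay at or below 10.63. The other glycosidases, Gaa, Gusb, Glb1, Neu1, Gla and Man2b1, ranged from -0.04 to 0.16. Second, dimmer probe sets stood at 0.22 ± 0.07 for Gaa, 0.08 ± 0.05 for Gla, 0.05 ± 0.07 for Neu1 and -0.03 ± 0.06 for Man2b1. Without rat 302 the acid alpha-glucosidase Gaa and the beta-glucuronidase Gusb, both at 0.16 with all rats, rose by 0.19 ± 0.05 and 0.19 ± 0.04 (adjusted p = 0.0219 and 0.00629), and the beta-galactosidase Glb1 rose by 0.14 ± 0.04 (adjusted p = 0.0217).

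Lipa rose with smoke and was lowest in the air group, at 10.12, 10.18, 10.30 and 10.08. It stood at 10.24, 10.22, 10.67 and 10.5 with sand, at 10.68, 10.37, 10.45 and 10.39 with silica and at 10.66, 10.31, 10.42 and 10.62 with smoke. The combined groups gave 10.55, 10.78, 10.54 and 10.42 with sand and 10.86, 10.69, 10.79 and 10.93 with silica, so that each smoke and silica rat lay above all other rats but 404 of the smoke and sand group. The remaining lipid and phosphate enzymes did not pass. Acp5, the tartrate-resistant acid phosphatase of osteoclasts and macrophages, stood at 0.21 ± 0.10 (adjusted p = 0.182), and Pla2g15, Acp2, the acid ceramidase Asah1 and the palmitoyl thioesterase Ppt1 ranged from -0.01 to 0.11. Without rat 302 the acid phosphatase Acp2 rose by 0.14 ± 0.03 (adjusted p = 0.0179).

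Among the lumen proteins that are no enzymes, Grn, the precursor of the granulins, rose by 0.22 ± 0.05 (adjusted p = 0.0126). Its levels were 11.47, 11.58, 11.74 and 11.62 in the air group, 11.66, 12.02, 11.89 and 11.72 with sand and 11.87, 11.65, 11.75 and 11.75 with silica. Smoke rats had 12.20, 11.83, 11.87 and 11.89 without particles, 11.75, 11.95, 11.86 and 11.92 with sand and 11.96, 12.01, 12.13 and 12.04 with silica. All smoke rats lay above the air group, though they overlapped the sand and silica groups. Psap, the precursor of the saposins that help lipid hydrolases, stood at 0.15 ± 0.05 (adjusted p = 0.073), and Npc2, the cholesterol carrier that hands its load to the membrane transporter, at 0.11 ± 0.05 (adjusted p = 0.14). Both rose without rat 302, by 0.16 ± 0.05 and 0.13 ± 0.04 (adjusted p = 0.0296 and 0.0406).

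Of the 7 membrane proteins 3 rose. Cd68 levels were 9.86, 10.13, 10.09 and 9.91 in the air group, 10.15, 10.47, 10.74 and 10.47 with sand and 11.12, 10.15, 10.74 and 10.37 with silica. With smoke they were 11.75, 11.03, 11.15 and 11.11 without particles, 10.88, 11.40, 10.97 and 11.30 with sand and 11.29, 11.31, 11.63 and 11.70 with silica. The air group lay lowest with no overlap with any other group, and silica rat 501 alone reached into the range of the smoke rats. The adjusted p of Cd68 was 3.41e-05.

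Cd63, a tetraspanin of late endosomes and secretory lysosomes, rose by 0.29 ± 0.04 (adjusted p = 2.60e-04). It was tight in the air group, at 12.32, 12.34, 12.29 and 12.34, and stood at 12.36, 12.54, 12.63 and 12.58 with sand and 12.61, 12.39, 12.48 and 12.50 with silica. Smoke gave 12.83, 12.74, 12.68 and 12.59 without particles, 12.72, 12.75, 12.60 and 12.89 with sand and 12.71, 12.72, 12.88 and 12.78 with silica. Every exposed rat of any group was thus above the 4 air rats, and the smoke rats overlapped the particle groups only between 12.59 and 12.63. Lamp2, which takes part in autophagy, rose by 0.31 ± 0.08 (adjusted p = 0.0294), but its other, nearly as bright probe set stood at 0.12 ± 0.06. The Lamp2 call ended with the mean of both, at 0.21 (adjusted p = 0.0599), and without rat 201, 203, 404, 502, 504 or 604 (highest adjusted p 0.0547). Without rat 302, which lay at 10.65 against 11.56 to 11.61 in its group, the difference was 0.23 ± 0.04. Lamp1, the other main glycoprotein of the lysosomal coat, stood at 0.11 ± 0.03 (adjusted p = 0.064), Scarb2, the receptor that carries glucocerebrosidase to lysosomes, at 0.28 ± 0.10, the calcium channel Mcoln1 at 0.05 ± 0.06 and Cln3 at -0.11 ± 0.05. Without rat 302 Lamp1 rose by 0.12 ± 0.03 (adjusted p = 0.0219), Scarb2 by 0.32 ± 0.09 (adjusted p = 0.0353) and Mcoln1 by 0.10 ± 0.03 (adjusted p = 0.043), and Cln3 stood at -0.08 ± 0.04.

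One of 5 pump subunits rose, Atp6v1b2, the B2 subunit of the catalytic head, by 0.29 ± 0.05 (adjusted p = 0.00134), and its second probe set gave 0.27 ± 0.07. It lay within 10.30, 10.29, 10.29 and 10.31 in the air group, at 10.44, 10.76, 10.64 and 10.51 with sand and at 10.76, 10.44, 10.52 and 10.51 with silica. With smoke it was at 10.94, 10.56, 10.69 and 10.68 without particles, 10.75, 10.75, 10.58 and 10.77 with sand and 10.78, 10.86, 10.99 and 10.91 with silica. All 20 exposed rats lay above the air group. The head subunits Atp6v1a and Atp6v1h stood at 0.28 ± 0.11 and 0.04 ± 0.04 and the accessory subunit Atp6ap1 at 0.08 ± 0.04. A second, dimmer probe set of Atp6v1a stood at 0.30 ± 0.08. Without rat 302, which lay far below its group in Atp6v1a, that gene rose by 0.17 ± 0.05 (adjusted p = 0.0313).

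Atp6v0d1, the widely expressed d subunit of the membrane part of the pump, stood at -0.02 ± 0.04, with an interval of -0.10 to 0.06. Its levels were 11.57, 11.53, 11.59 and 11.60 in the air group, 11.72, 12.04, 11.72 and 11.64 with sand and 11.66, 11.54, 11.59 and 11.61 with silica. They were 11.75, 11.62, 11.68 and 11.63 with smoke, 11.63, 11.64, 11.56 and 11.62 with smoke and sand and 11.61, 11.61, 11.54 and 11.71 with smoke and silica. The sand group, with the 12.04 of rat 302, and the smoke group lay above the air group, and the other 3 groups overlapped it.

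Neither transcription factor passed in any of the 12 comparisons. Tfeb stood at 0.07 ± 0.05 between smoke and air rats (adjusted p = 0.426), with levels of 8.61, 8.55, 8.80 and 8.48 in the air group, 8.59, 8.97, 8.59 and 8.83 with sand and 8.53, 8.61, 8.64 and 8.63 with silica. Under smoke it stood at 8.71, 8.76, 8.72 and 8.84 without particles, 8.75, 8.72, 8.80 and 8.70 with sand and 8.63, 8.61, 8.53 and 8.84 with silica, and the air group overlapped each of the other 5. Mitf stood at 0.22 ± 0.14 (adjusted p = 0.333), and at 0.09 ± 0.06 (adjusted p = 0.375) without rat 302. Its levels were 8.01, 8.11, 7.76 and 8.03 in the air group, 8.23, 6.68, 8.49 and 8.24 with sand and 8.40, 8.18, 8.43 and 8.01 with silica. The smoke rats had 8.39, 8.26, 8.23 and 8.03, then 8.27, 8.43, 8.35 and 8.20 with sand and 8.44, 8.24, 8.31 and 8.14 with silica, with both combined groups above the air group and rat 302 far below all others at 6.68. RNA levels of these factors do not show their activity, which is known to be set largely by phosphorylation and entry into the nucleus.

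RefSeq promoters of assembly GRCr8, from 250 bases before to 50 bases after a transcription start, were matched to 34 of the 41 genes. They were searched on both strands for TCACGTGA, the inner part of the CLEAR element bound by TFEB, for CACGTG, the E-box core it contains, and for TCATGTGA, the M-box form known for MITF, which reads TCACATGA on the other strand. TCACGTGA was found in 5 of the 34 genes (14.7%) and in 0.896% of 27457 genes of the table, and CACGTG in 8 (23.5%) against 7.08%. TCATGTGA was found in 6 (17.6%) against 1.27%. The matches were found both in genes that rose with smoke and in genes that did not pass. TCACGTGA was in 1 of the 12 that rose and had a promoter, Ctsd, and in 4 of the 22 that did not pass, Lamp1, Cln3, Mcoln1 and Atp6v0d1, while TCATGTGA was in 4 of the 12, Ctss, Tpp1, Grn and Cd63, and in 2 of the 22, Acp5 and Atp6v1a. This division depends on rat 302: without it Lamp1, Mcoln1 and Atp6v1a rose too, so that 3 of the 5 genes with TCACGTGA and 5 of the 6 with TCATGTGA did. Of all 41 genes 25 rose without that rat, and a link of the motifs to the rises was not tested. A match is a description of the letters and does not show binding.

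The following stretches carry such matches, in capitals, and are shown because they set genes that rose with smoke in all 24 rats beside genes that did not pass there while holding the same letters. The first group has TCACGTGA in Ctsd, which rose, at chr1:206968805-206968852 on the minus strand, 11 bases before the start. It was also in genes that did not pass with all rats, Lamp1 (chr16:83075102-83075149, minus strand, 66 bases before), Cln3 (chr1:190597941-190597988, minus strand, 39 bases before) and Atp6v0d1 (chr19:50357274-50357321, minus strand, 53 bases before).
Ctsd: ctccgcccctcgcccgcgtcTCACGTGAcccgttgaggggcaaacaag
Lamp1: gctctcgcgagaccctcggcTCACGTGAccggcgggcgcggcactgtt
Cln3: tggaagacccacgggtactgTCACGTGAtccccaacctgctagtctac
Atp6v0d1: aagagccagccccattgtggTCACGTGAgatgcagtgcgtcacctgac

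The M-box letters lie, in genes that rose, 39 bases before the start of Tpp1 (chr1:169515951-169515998, minus strand), 197 before that of Grn (chr10:87887617-87887664, plus strand) and 117 before that of Cd63 (chr7:1922007-1922054, plus strand). They also lie 23 bases before the start of Atp6v1a (chr11:70067459-70067506, plus strand), which did not pass with all rats. Tpp1 holds them again 27 bases before its start, on the opposite strand.
Tpp1: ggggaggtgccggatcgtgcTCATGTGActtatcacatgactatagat
Grn: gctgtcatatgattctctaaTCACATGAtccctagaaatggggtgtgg
Cd63: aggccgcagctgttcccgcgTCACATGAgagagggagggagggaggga
Atp6v1a: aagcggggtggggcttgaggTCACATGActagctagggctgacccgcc

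Smoke without particles was compared with the air group to describe smoke by itself. Of the 41 lysosomal genes 11 rose and none fell, where 0.76% of all genes rose and 0.134% fell. At an unadjusted p under 0.05 there were 26, against 9.95% of all genes. The median difference was 0.27, against -0.01 for all genes. All 4 smoke rats lay above all 4 air rats in 28 of the 41 and below them in none, where 4.86% of all genes had them above and 5.08% below. Cd68 rose by 1.26 ± 0.19 (adjusted p = 0.00142), Ctsk by 1.10 ± 0.22 (adjusted p = 0.0166) and Ctsd by 0.91 ± 0.10 (adjusted p = 9.27e-05). Smaller rises were those of Ctsz at 0.63 ± 0.14, Atp6v1b2 at 0.42 ± 0.09, Hexa at 0.41 ± 0.09, Cd63 at 0.39 ± 0.07, Ctsa at 0.38 ± 0.09, Ctsb at 0.37 ± 0.08, Lgmn at 0.36 ± 0.08 and Npc2 at 0.36 ± 0.08, with adjusted p from 0.0084 to 0.0349.

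Npc2 was among the genes that rose here and not in the average over particle conditions. Its mean was 13.12 ± 0.12 (SD, n = 4) in the air group and 13.46 to 13.52 in each of the 5 exposed groups, so that smoke added 0.01 ± 0.08 to the silica group and -0.04 ± 0.08 to the sand group. The count of 11 rested on single rats. Leaving out rat 201 gave 2, rat 102 gave 3, rat 103 gave 4, rats 104, 105 and 204 each gave 6, and rat 302 gave 15. Without rat 302 the share of all genes past the threshold went from 0.893% to 1.89%. Ctsd and Cd68 kept their call without each of the 24 rats in turn, with differences of 0.84 to 0.95 and 1.10 to 1.34. The Cd63 call ended without rat 201 (adjusted p = 0.0577), those of Ctsk and Atp6v1b2 without rats 102 and 201 and 1 rat more (adjusted p up to 0.092 and 0.0999), and those of Ctsa, Ctsb, Ctsz, Lgmn, Hexa and Npc2 without rat 102, 103 or 201 and up to 4 others (adjusted p up to 0.178). With RNA integrity as a covariate on 19 arrays only Ctsd, Ctsk and Cd68 of the 11 kept their call (adjusted p of the other 8 from 0.054 to 0.271). The differences of those 8 were then 0.37 to 0.64, and the same 8 calls were lost on these 19 arrays without the covariate (adjusted p from 0.0945 to 0.223). With the mean of both Lgmn probe sets over all rats, the Lgmn call ended, at 0.18 (adjusted p = 0.456). Renewed quantile normalization ended the Npc2 call, at 0.31 (adjusted p = 0.0834).

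Against animals breathing the same particle, smoke changed fewer of these genes past the threshold. With Iraqi sand in both groups 0 of the 41 passed in limma, where 0.366% of all genes rose and 0.928% fell, and 10 had an unadjusted p under 0.05, against 20.5% of all genes. The median difference was 0.01. The smoke rats lay above all rats without smoke in 3 of the 41 and below in 3, against 2.06% and 6.95% of all genes. Cd68 stood at 0.68 ± 0.19 (adjusted p = 0.0708), Ctsk at 0.63 ± 0.22 (adjusted p = 0.127) and Ctsd at 0.36 ± 0.10 (adjusted p = 0.0785), while Cln3 and the alpha-mannosidase Man2b1 stood at -0.32 ± 0.08 and -0.30 ± 0.08 (adjusted p = 0.051 and 0.0508). Without rat 302 the median was 0.07 and Tpp1 rose by 0.24 ± 0.05 (adjusted p = 0.0348), where 0.647% of all genes passed. The count was 3 without rat 305, and 1 without rat 104 or 605, with the shares of all genes in these fits not given here.

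With silica in both groups 0 of the 41 passed as well, where none of all genes rose (0%) and 0.00703% fell. At an unadjusted p under 0.05 there were 19 of the 41, against 8.17% of all genes, and 17 of the 41 had the smoke and silica rats above all silica rats and none below, against 2.8% and 4.35% of all genes. The median difference was 0.16. Ctsk stood at 1.18 ± 0.22 (adjusted p = 0.0732), Cd68 at 0.89 ± 0.19 (adjusted p = 0.0823) and Ctsd at 0.49 ± 0.10 (adjusted p = 0.085). When rat 302 was left out, which changes only the spread shared by all groups here, Ctsk, Cd68, Ctsd, Tpp1, Hexa and Lamp2 rose, with adjusted p from 0.0272 to 0.0432. Of all genes 0.429% then passed. The count was 3 without rat 501 and 1 without rat 201 or 602, with the shares of all genes in these fits not given here.

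**Figure D3:**
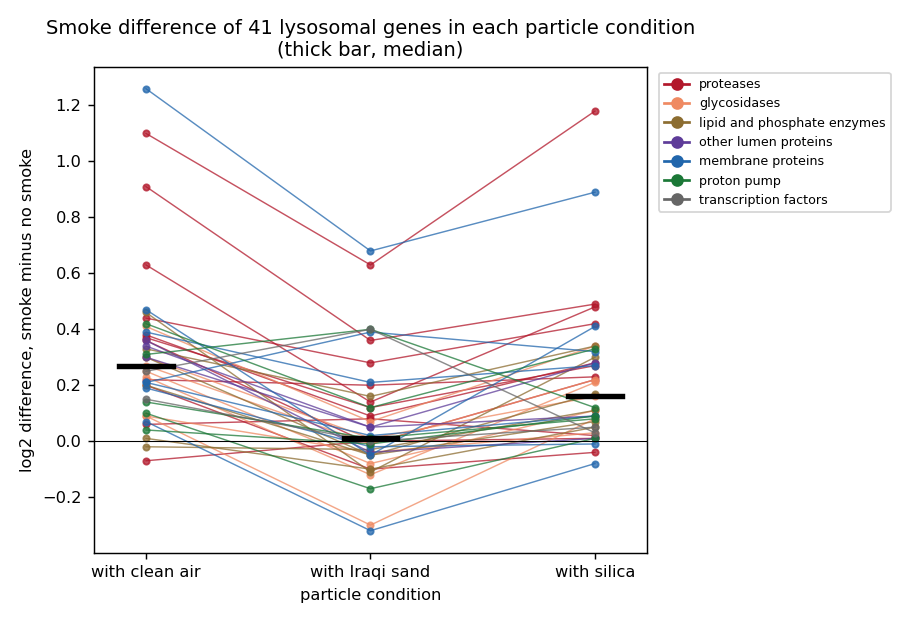
Log2 difference between smoke and no smoke for the 41 lysosomal genes with clean air, with Iraqi sand and with silica in both groups (points, genes; lines join a gene; thick bars, medians). The medians are 0.27, 0.01 and 0.16.

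Whether smoke acted differently in the presence of a particle was tested by the interaction of both exposures. For Iraqi sand 0 of the 41 genes passed in limma, where 0.00703% of all genes were higher and none lower (0%), and 22 had an unadjusted p under 0.05, against 8.84% of all genes. The interaction lay below 0 in 36 of the 41 and above 0 in 5, where 41.9% of all genes lay above 0. The median was -0.27, against -0.04 for all genes. Ctsd stood at -0.54 ± 0.15 (adjusted p = 0.358), Cd68 at -0.59 ± 0.26 (adjusted p = 0.559), Npc2 at -0.40 ± 0.11 (adjusted p = 0.358) and Man2b1 at -0.40 ± 0.11 (adjusted p = 0.358). Without rat 302 the median was -0.23, against -0.02 for all genes, and 39 lay below 0 and 2 above, where 45% of all genes lay above. At an unadjusted p under 0.05 there were then 11, against 7.51% of all genes. For silica 0 passed, as did none of all genes (0% in each direction), 2 had an unadjusted p under 0.05, against 2.24% of all genes, namely Npc2 at -0.36 ± 0.11 and Ctsd at -0.42 ± 0.15, and the median was -0.09. The interactions share the air and the smoke group, and none of these differences between particle conditions passed the adjustment.

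Particles without smoke were compared with the air group as well. In the sand group 0 of the 41 passed in limma against the air group, where 0.0141% of all genes rose and 0.0141% fell, with 19 at an unadjusted p under 0.05 against 10.2% of all genes. The median was 0.19, against 0.04 for all genes, and 0.15 without rat 302. All sand rats lay above all air rats in 13 of the 41 and below in 1, against 3.4% and 0.928% of all genes. Without rat 302 Ctsk went from 0.11 to -0.05, Lamp2 from -0.15 to 0.09, Atp6v1a from -0.12 to 0.19, Mitf from -0.07 to 0.34 and Mcoln1 from 0.08 to -0.06. With all rats Ctsd stood at 0.47 ± 0.10 (adjusted p = 0.102), Ctsz at 0.47 ± 0.14 (adjusted p = 0.302), Cd68 at 0.46 ± 0.19 (adjusted p = 0.426), the phospholipase Pla2g15 at 0.43 ± 0.13 (adjusted p = 0.29) and Npc2 at 0.37 ± 0.08 (adjusted p = 0.0824). Without rat 301, which was below its group mates in 23 of the 41 genes, 2 passed. That count alone does not show whether the 41 genes moved more than the rest.

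Silica alone raised 1 of the 41, Npc2, by 0.40 ± 0.08 (adjusted p = 0.0371), where 0.141% of all genes rose and none fell (0%). The call ended without any rat of the air or silica group and without rat 201, 203, 204, 205, 304, 305 or 602 (adjusted p up to 0.211). It also ended under renewed quantile normalization, at 0.36 (adjusted p = 0.104). Cd68 stood at 0.60 ± 0.19 (adjusted p = 0.526), Ctsd at 0.41 ± 0.10 (adjusted p = 0.199) and Lgmn at 0.33 ± 0.08 (adjusted p = 0.116), and the median was 0.15. At an unadjusted p under 0.05 there were 13, against 5% of all genes, and 13 had all silica rats above all air rats and none below, against 3.24% and 2.95%. Averaged over smoke and air, silica raised Lgmn, by 0.26 ± 0.05 (adjusted p = 0.0269), where 0.281% of all genes rose and 0.0633% fell, and 14 had an unadjusted p under 0.05, against 11.7%. With the mean of both Lgmn probe sets the Lgmn call ended, at 0.19 (adjusted p = 0.176). That call was lost on leaving out rat 102, 103, 104, 203, 204, 205, 501, 503, 604 or 605 (highest adjusted p 0.0814), and without rat 302 Npc2, Lipa, Tpp1, Lamp2, Atp6v1a and Atp6v1b2 rose as well, Cln3 fell by 0.18 ± 0.05, and the count was 8, while the share of all genes past the threshold went from 0.345% to 3.81%. Iraqi sand averaged over smoke and air gave 0 of 41 in limma, as for all genes (0% in each direction), with 7 at an unadjusted p under 0.05 against 5.22% of all genes. Neither average had a gene of the 41 with fully separate rats, against 0.0211% above and 0.00703% below of all genes for sand and 0.267% and 0.232% for silica.

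Combined exposures were set against air alone. Smoke and silica raised 18 of the 41 and lowered none, where 2.19% of all genes rose and 1.58% fell, with a median of 0.34. At an unadjusted p under 0.05 there were 28, against 18.5% of all genes, and 29 had all smoke and silica rats above all air rats and none below, against 7.64% and 10%. Cd68 rose by 1.49 ± 0.19, or 2.80-fold (adjusted p = 8.59e-05), Ctsk by 1.37 ± 0.22, or 2.59-fold (adjusted p = 9.60e-04), Ctsd by 0.90 ± 0.10 (adjusted p = 4.87e-05) and Ctsz by 0.83 ± 0.14 (adjusted p = 0.00149). Ctss rose by 0.73 ± 0.14, Lipa by 0.65 ± 0.11, Atp6v1b2 by 0.59 ± 0.09, Lgmn by 0.55 ± 0.08, Hexa by 0.47 ± 0.09, Cd63 by 0.45 ± 0.07 and Grn by 0.43 ± 0.09 (adjusted p from 2.16e-04 to 0.00861). Ctsb and Npc2, both at 0.40 ± 0.08, and Tpp1, at 0.35 ± 0.06, also kept their calls without each rat in turn (adjusted p up to 0.0421). Less firm were Scarb2 at 0.61 ± 0.17 and Gusb at 0.34 ± 0.09, whose calls were each lost on leaving out any 1 of 19 rats (highest adjusted p 0.21 and 0.199), Ctsa at 0.35 ± 0.09, which ended without rat 102, 103, 105, 604 or 605, and Atp6ap1 at 0.24 ± 0.06, which ended without any rat of the compared groups. With RNA integrity as a covariate on 19 arrays these 4 calls ended, as did those of Ctsb, Ctss, Hexa and Npc2 (adjusted p from 0.0552 to 0.269). On these arrays without the covariate, the calls of Ctsa, Ctsb, Gusb, Npc2, Scarb2 and Atp6ap1 ended too (adjusted p from 0.0505 to 0.213). Leaving out rat 302 gave 26 of the 41, while the share of all genes past the threshold went from 3.77% to 12.5%. Ctsc, Glb1, Gaa, Acp2, Acp5, Psap, Lamp2 and Atp6v1a then rose as well.

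Smoke and Iraqi sand raised 6 of the 41 against air alone and lowered none, where 0.64% of all genes rose and 0.338% fell, with a median of 0.24. At an unadjusted p under 0.05 there were 19, against 10.9% of all genes, and 22 had the exposed rats above all air rats and 1 below, against 5.59% and 7.17%. These were Cd68 at 1.14 ± 0.19 (adjusted p = 0.00355), Ctsd at 0.83 ± 0.10 (adjusted p = 5.76e-04), Ctsz at 0.61 ± 0.14 (adjusted p = 0.0363), Cd63 at 0.42 ± 0.07 (adjusted p = 0.00524), Atp6v1b2 at 0.41 ± 0.09 (adjusted p = 0.0194) and Npc2 at 0.34 ± 0.08 (adjusted p = 0.0392). All 6 were also among the 18 of smoke and silica, which shares its air group. The count was 3 without rat 102, 103, 404 or 406, with the shares of all genes in these fits not given here, and 13 without rat 302. Without rat 302 the share of all genes past the threshold also went from 0.978% to 3.97%. Calls of Ctsd, Cd63 and Cd68 held without each rat in turn, while those of Ctsz, Atp6v1b2 and Npc2 ended without 5 to 10 different rats (adjusted p up to 0.184). With RNA integrity as a covariate on 19 arrays, Ctsd alone of the 6 kept its call (adjusted p of the other 5 from 0.0793 to 0.482). The same 5 calls were lost on these arrays without the covariate (adjusted p from 0.0905 to 0.482). Under renewed quantile normalization the Npc2 call ended, at 0.29 (adjusted p = 0.0998).

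**Figure D4:**
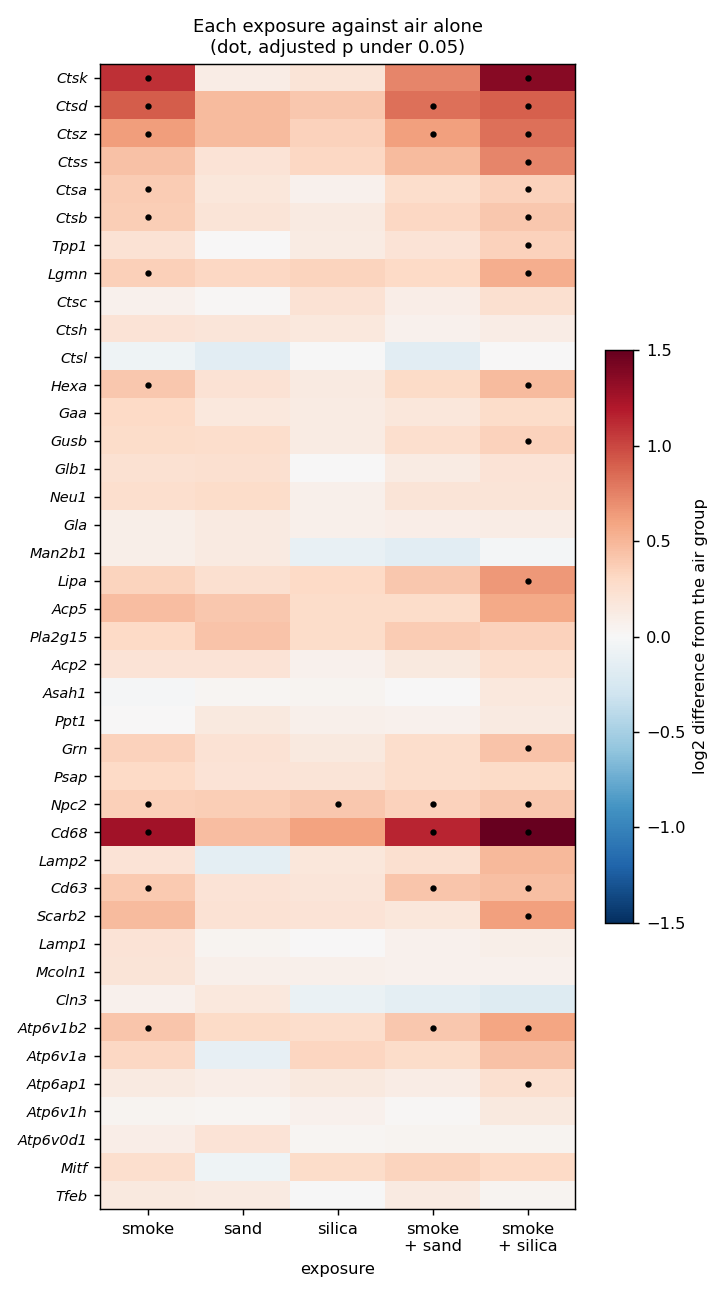
Log2 difference of each of the 5 exposed groups from the air group (color) for the 41 lysosomal genes in order of role, with a dot where the adjusted p was under 0.05. Smoke and silica has 18 dots, smoke 11, smoke and sand 6, silica 1 and sand none.

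In the order of group means, the air group was lowest in 32 of the 41 genes, against 14.8% of all genes, and the smoke and silica group highest in 24, against 18.7%. The silica group lay between the air and the smoke group in 28 of the 41 (16.2% of all genes) and the sand group in 26 (12.8%). These counts share the air and smoke groups and are descriptions. The mean of the smoke and silica group was above that of smoke alone in 28 of the 41, against 46.3% of all genes, and that of smoke and sand in 10, against 46.4%. Across the 12 comparisons, 5 genes rose in all 4 of smoke alone, smoke averaged and both combined exposures, namely Ctsd, Ctsz, Cd63, Cd68 and Atp6v1b2. Another 22 passed in none with all rats: Ctsc, Ctsh, Ctsl, Glb1, Gla, Gaa, Neu1, Man2b1, Asah1, Pla2g15, Ppt1, Acp2, Acp5, Psap, Lamp1, Cln3, Mcoln1, Atp6v0d1, Atp6v1a, Atp6v1h, Tfeb and Mitf. Both lists depend on rat 302. Without it Ctsa, Ctsb, Lgmn, Tpp1, Hexa and Npc2 also rose in all 4. Of the 22, Glb1, Gaa, Acp2, Psap, Lamp1, Mcoln1 and Atp6v1a then rose in the smoke average. Ctsc and Acp5 then rose with smoke and silica against air, and Cln3 fell in the silica average.

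Rats of 1 group also differed in many lysosomal genes at once. In the smoke group, rat 201 was above all its group mates in 33 of the 41, where it was so in 26.6% of all genes, and in the silica group rat 501 was above in 28 (33.1% of all genes) and rat 502 below in 26 (22.9%). Rat 404 of the smoke and sand group was above in 25 (22.3%), rat 604 of the smoke and silica group in 24 (36.4%) and rat 302 of the sand group in 24, but it was above in 59.6% of all genes. In the sand group, rat 301 was below its group mates in 23 (29.4%). The mean level of the 41 genes ran from 10.43 to 10.49 in the air group, 10.53 to 10.70 with sand, 10.53 to 10.74 with silica, 10.71 to 10.92 with smoke, 10.64 to 10.81 with smoke and sand and 10.77 to 10.94 with smoke and silica.

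Markers of alveolar macrophages were compared as well, and they did not all go the same way. In the smoke average, where 2.69% of all genes rose and 3.7% fell, 5 of 13 measured alveolar macrophage markers of 16 listed rose, the lipopolysaccharide receptor Cd14 by 0.51 ± 0.12, the integrin Itgax by 0.46 ± 0.13, the galectin Lgals3 by 0.54 ± 0.06, the lipid receptor Trem2 by 1.15 ± 0.22 and the chitinase-like protein Chi3l1 by 0.77 ± 0.17, while 1 fell, Adgre1, which encodes the F4/80 antigen, by 0.60 ± 0.09. Csf1r, the receptor of the macrophage growth factor, stood at -0.15 ± 0.07 (adjusted p = 0.158), and Marco, Msr1 and Siglec1 were not measured. The summed log2 level of the 13 markers ran from 117.9 to 122.1 in the air group, 121.4 to 125.0 with sand, 121.5 to 124.9 with silica, 124.4 to 127.6 with smoke, 121.8 to 127.4 with smoke and sand and 125.1 to 132.7 with smoke and silica. Rat 201 was the highest of the smoke group, at 127.6, and rat 604 of the smoke and silica group, at 132.7. The other rats above their mates in many lysosomal genes were not the highest of their groups in these markers. Rat 501 of the silica group stood at 123.5, rat 404 of the smoke and sand group at 126.6 and rat 302 of the sand group at 121.8. The part of the macrophage markers in the lysosomal differences was not tested.

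**Figure D5:**
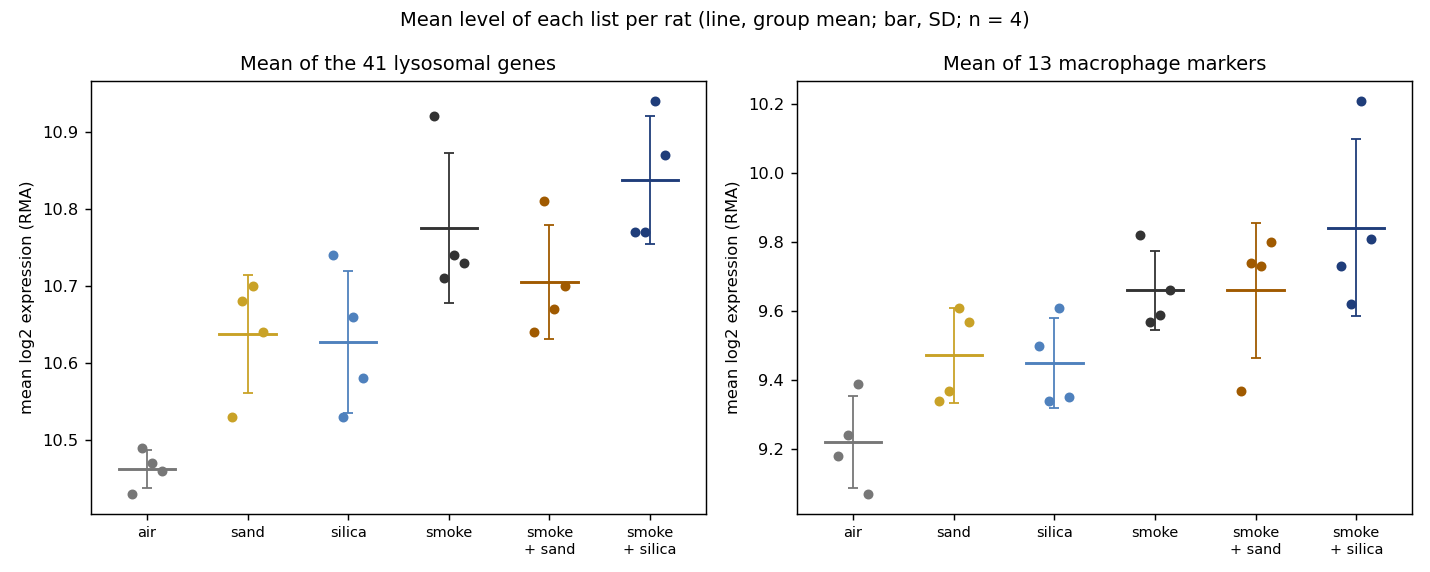
Mean log2 expression of the 41 lysosomal genes (left) and of 13 alveolar macrophage markers (right) in each of the 24 rats (points), with the group mean (line) and SD (bar, n = 4). On the left the 4 air rats lie between 10.43 and 10.49, below all other rats, and on the right the air rats lie between 9.07 and 9.39 and overlap the sand, silica and smoke and sand groups.

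Some markers of other cell types passed too, against the same 2.69% and 3.7% of all genes. Of 9 neutrophil markers 2 rose with smoke, S100a9 by 1.35 ± 0.23 and Cxcr1 by 1.00 ± 0.13, and rat 201 had a mean of 10.2 over them against 8.22 to 8.67 in its group mates. Of 9 airway secretory markers 3 rose, of 10 alveolar type 2 markers 1 fell, 6 of the 10 markers of T and NK cells fell, and so did 1 of the 4 for B cells. None of 7 heart muscle or 5 proliferation markers passed in limma. Their part in the lysosomal differences was not tested either.

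Other lysosomal genes, from lists by role outside the 41, were compared in the smoke average too, where 2.69% of all genes rose and 3.7% fell. Among 26 other lysosomal enzymes 3 rose and 2 fell, with Galc, which degrades galactosylceramide, at 0.42 ± 0.08, the dipeptidyl peptidase Dpp7 at 0.37 ± 0.06 and Ctsw, a cathepsin known from NK and cytotoxic T cells, falling by 0.39 ± 0.08. Of 19 other membrane proteins 4 rose, with the glycoprotein Gpnmb at 1.12 ± 0.11, the cation channel Mcoln2 at 0.94 ± 0.14 and Sidt2 at 0.22 ± 0.05. Of 13 other pump subunits 2 rose, Atp6v0a1 by 0.16 ± 0.04 and Atp6ap2 by 0.30 ± 0.09, and Atp6v1d stood at 0.13 ± 0.04 (adjusted p = 0.052).

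Genes of sorting and regulation gave single calls. None of 18 genes that carry hydrolases to lysosomes passed in limma, with the mannose 6-phosphate receptor Igf2r at 0.14 ± 0.06 (adjusted p = 0.163), the adaptor Gga2 at -0.18 ± 0.06 (adjusted p = 0.0745) and the tethering subunit Vps33a at -0.19 ± 0.09 (adjusted p = 0.201). Among 11 regulators and autophagy genes Rragd, a Rag GTPase that links lysosomes to mTORC1, rose by 0.23 ± 0.05 and Wipi1 fell by 0.23 ± 0.07. Tfec, a relative of TFEB known from macrophages, stood at 0.46 ± 0.16 in the smoke average (adjusted p = 0.0775) and rose by 1.19 ± 0.27 with smoke and silica against air (adjusted p = 0.0169). Of 5 cathepsin inhibitors, Cst6 rose by 0.59 ± 0.17, Cstb stood at 0.18 ± 0.06 (adjusted p = 0.0514) and Cst3 at -0.09 ± 0.05 (adjusted p = 0.256).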

How the data were processed

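Lung RNA of 24 rats in 6 groups of 4 was hybridised to 1 Affymetrix rat array each, and groups came from the sample labels. The deposited values are log2 values made with RMA, per the submitters' processing notes, with its version not given in the sources used here. RMA includes quantile normalization, which removes a shift common to most genes, and it compresses changes of dim probe sets. RNA integrity numbers, known for 19 arrays, were 8.1 to 9.8. Of 31099 probe sets, 57 were controls, 20826 had 1 gene symbol, 436 several and 9780 none. For each of 14217 genes the brightest single-symbol probe set was used, and 14 of the 41 genes had several.

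Differences came from limma 3.58.1 (R 4.3.3) with 1 mean per group over the 24 arrays (lmFit, eBayes, no trend, not robust, no filter), with 18 residual degrees of freedom and two-sided Benjamini-Hochberg adjustment over all genes within each of 12 comparisons. The rats are separate animals, so p-values refer to the spread between them, and 4 arrays a group limit the precision. In simulated data for the smoke average with 200 of 14217 genes changed, 80% of changes of 0.5 and 99% of changes of 1 on the log2 scale were recovered. Smaller changes, such as the median of 0.16 of the 41 genes, were not simulated, nor was an array that stands apart. The recovery of such changes is therefore not known. Alternatives were trend and robust shrinkage, only genes above the median level, averaged probe sets, only the compared arrays, array weights, renewed quantile normalization, median centring, the RNA integrity number as a covariate, the arrays that have one without the covariate, and rats left out.

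The genes, lists, comparisons and tests were chosen with earlier results of these data known. All rats' values are given for the genes past the threshold in the smoke average with the 2 largest moderated t in each role, and for Tfeb, Mitf and Atp6v0d1. Outside the 41 genes, the 3 with the largest moderated t of each pathway list are named. Markers past the threshold are named for macrophages and neutrophils and only counted for the other cell types. Csf1r and the rats named singly were chosen after their values were seen.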

Additional observations from a re-analysis of the deposited data

Results flagged for a closer look

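Of 246 sets of 4 rats, 1 for each gene and group, 19 held a rat whose gap to the nearest of the others took up more of the set's range than Dixon's 95% critical value, where chance gives about 1 in 20. Rat 302 of the sand group gave 7 of the 19. It was above its group mates in Glb1, at 10.15 against 9.69 to 9.75, in Man2b1, at 10.72 against 10.42 to 10.45, in Scarb2, at 9.50 against 8.93 to 9.01, and in Mcoln1, at 8.61 against 8.0 to 8.05. It was below them in Lamp2, at 10.65 against 11.56 to 11.61, in Atp6v1a, at 9.54 against 10.77 to 10.88, and in Mitf, at 6.68 against 8.23 to 8.49. Rat 604 of the smoke and silica group gave 3, with Ctsb at 13.45 against 13.14 to 13.18, Atp6v1a at 11.23 against 10.99 to 11.03 and Atp6v1h at 10.27 against 10.16 to 10.18.

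In the smoke group, Cd68 stood at 11.75 in rat 201 against 11.03 to 11.15. In the smoke and sand group, rat 405 was low in Atp6v0d1, at 11.56 against 11.62 to 11.64, and in Atp6v1b2, at 10.58 against 10.75 to 10.77, and rat 406 was high in Ctsh, at 13.60 against 13.30 to 13.33. Acp5 stood at 10.59 in smoke and silica rat 605 against 9.95 to 10.02, and Glb1 at 9.50 in silica rat 502 against 9.61 to 9.62. The air group held 3 low values. These were Ctsd at 12.25 in rat 102 against 12.45 to 12.49, Gla at 8.55 in rat 104 against 8.79 to 8.82 and Atp6v1h at 9.98 in rat 103 against 10.06 to 10.07.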

How the results depend on the processing

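No difference past the threshold changed its direction under any alternative that was run. Of all 492 differences of the 41 genes, 26 changed sign without rat 302, none of them past the threshold with or without it. No paired analysis was possible because the rat numbers in the labels are unique to each animal and the groups share none. The counts of the 41 genes past the threshold moved as follows. Under each alternative, moves beyond a fixed ratio, or to or from 0, are listed. Comparisons left out moved less or not at all. Shares of all genes are given only for the fit without rats 302, 104 and 604. The other counts alone do not show whether the 41 genes moved more than the rest. Array weights, which set rat 302 to 0.0446, gave 23 for smoke alone, 3 for smoke under Iraqi sand, 9 for smoke under silica, 28 for smoke averaged, 5 for Iraqi sand alone, 2 for silica alone, 7 for silica averaged and 19 for smoke plus Iraqi sand. A fit with RNA integrity as a covariate, known for 19 arrays, gave 3 for smoke alone, 0 for silica alone, 0 for silica averaged, 1 for smoke plus Iraqi sand and 10 for smoke plus silica. The same arrays without the covariate, an alternative added after seeing the data, gave 3 for smoke alone, 0 for silica alone, 0 for silica averaged and 1 for smoke plus Iraqi sand. Genes above the median level gave 3 for smoke under Iraqi sand and 2 under silica. Averaged probe sets gave 1 for smoke under Iraqi sand and 0 for silica averaged. Only the compared arrays gave 0 for silica alone and 5 for silica averaged. Renewed quantile normalization gave 1 for smoke under Iraqi sand and 0 for silica alone, and median centring 1 for smoke under Iraqi sand and 2 for silica averaged. Without rats 302, 104 and 604 together the counts were 1 for smoke under Iraqi sand, 2 for silica averaged and 14 for smoke plus Iraqi sand. Of all genes 0.978%, 1.21% and 2.64% passed in these. Smaller moves in the same fit gave 14 for smoke alone, 21 for smoke averaged and 19 for smoke plus silica. Of all genes 1.96%, 8.31% and 4.12% passed there. Apart from the weights and fewer arrays, the cause was not tested.

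With each rat left out in turn, counts ran from 2 to 15 for smoke alone, 0 to 3 for smoke under Iraqi sand, 0 to 6 under silica, 14 to 25 for smoke averaged, 0 to 2 for Iraqi sand alone, 0 to 1 for silica alone, 0 to 8 for silica averaged, 3 to 13 for smoke plus Iraqi sand and 14 to 26 for smoke plus silica. They stayed at 0 for Iraqi sand averaged and both interactions. The share of all genes past the threshold moved as well, and is given here only for the fit without rat 302. Without rat 302 it went from 0.893% to 1.89% for smoke alone and from 6.39% to 10.3% for smoke averaged. For smoke plus Iraqi sand it went from 0.978% to 3.97%, and for smoke plus silica from 3.77% to 12.5%. It went from 1.29% to 0.647% for smoke under Iraqi sand and from 0.00703% to 0.429% under silica. Arrays with 4 rats a group limit what can be called, and no date or batch was in the labels. The age and the weeks of smoke differ between the labels and the series text.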
